A study of Mus musculus with 12 samples.

Results

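The response of CCRR-transgenic mouse hearts to myocardial infarction was set against that of wild-type hearts, gene by gene. For each gene the interaction is the change from TG to TG+MI minus the change from WT to WT+MI, so that a value above 0 means a larger rise, or a smaller fall, in transgenic hearts. All 12 of the 12 samples entered, 3 in each of 4 groups. WT and WT+MI are wild-type hearts without and with infarction, and TG and TG+MI are the same for hearts transgenic for CCRR, a long non-coding RNA. Total RNA of each sample was hybridised to 1 Agilent single-colour array. The labels give the strain C57/BL6 for WT and WT+MI and no strain for TG and TG+MI, so strain and transgene cannot be told apart. The sources used here do not give the promoter of the transgene, the time from infarction to sampling, or the age of the animals. Nor do they say whether each sample is its own animal, and p-values then measure only sample-to-sample spread, which may be technical.

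Infarction cuts off the blood supply of part of the heart wall. The dying muscle releases signals that Toll-like receptors and other sensors read, neutrophils and then monocytes enter, and fibroblasts lay down matrix that becomes the scar. The surviving muscle turns on natriuretic peptide and stress protein genes and turns down genes of fatty acid oxidation and of potassium channels. An interaction asks whether these programmes moved by a different amount in the transgenic heart. It can arise because the genotypes differed before infarction, after it, or both.

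Values are log2 intensities relative to the 75th percentile of each array, on which 1 unit is a 2-fold difference, and differences are given with limma's standard error over 3 arrays per group. The 75th percentile lay between 198 and 374 intensity units, and between 47.0% and 55.2% of probes were well above background. Myh6, the main cardiac myosin heavy chain gene, lay between 8.57 and 9.28 on all 12 arrays, and no spot carries the name CCRR. The 5 tested atrial markers (Sln, Myl7, Myl4, Mybphl, Dkk3) averaged 4.54 to 6.86 on the TG arrays and 4.51 on WT+MI 1. Their average was -3.34 to -1.55 on the WT arrays, -3.45 and -3.28 on the other WT+MI arrays, and -0.91, 2.54 and -3.19 on the TG+MI arrays. The arrays lay on 2 slides, with TG 3 and all TG+MI arrays on slide 2 and the other 8 arrays on slide 1. With slide as a block, the transgenic response rests on TG 3 as its only control, and under it 3 genes kept a called interaction. The other 111 named genes with a call lost it, at adjusted p of 0.0836 to 0.307, and blocked values are given below for examples.

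The interaction was called, at an adjusted p under 0.05, for 1728 of 19761 genes tested (8.74%), 1133 above 0 (5.73%) and 595 below 0 (3.01%). The calls lay close to the threshold. The smallest adjusted p was 0.000126, 9 genes were below 0.01 and 872 below 0.04, while 6366 genes had an unadjusted p under 0.05. The median interaction over all genes was 0.14, made of a median response of -0.14 in wild-type and 0.04 in transgenic hearts, and each list below is read against these medians. With the slide block 3 genes were called, Ucma, Col8a2 and Mettl7a1. All 1728 kept their sign under the block, with a median ratio of 0.91 to the unblocked estimate and a median standard error 1.26 times as large. They were chosen on these same arrays, so kept signs were largely fixed in advance and add no support. With the mean level of the atrial markers as a covariate, 1 gene, Ucma, was called (adjusted p = 0.00527). Of the 1728 genes, 189 were not well above background on any array of at least 1 group. For these a level in that group has only a bound, the size of the interaction was not measured, and bounds and the adjusted p of the fit are given in its place.

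The count of calls depended on single arrays. Leaving out WT 1 gave 193 calls, WT 2 gave 60 and WT 3 gave 55. Leaving out WT+MI 1 gave 386, WT+MI 2 gave 673 and WT+MI 3 gave 2260. Leaving out TG 1 gave 135, TG 2 gave 203 and TG 3 gave 1365, and leaving out TG+MI 1 gave 81, TG+MI 2 gave 2703 and TG+MI 3 gave 938. Of the infarcted arrays, WT+MI 1 and, to a lesser degree, TG+MI 2 (average 2.54) carried atrial marker signal, and TG+MI 3 stood alone on a principal component. Without WT+MI 1 and TG+MI 3, and with TG+MI 2 kept, 700 genes were called, of which 534 were among the 1728.

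Wild-type hearts answered infarction with more called genes than transgenic hearts. In wild-type hearts 9469 genes (47.9%) were called, 3668 higher (18.6%) and 5801 lower (29.4%), and in transgenic hearts 1745 (8.83%), 1025 higher (5.19%) and 720 lower (3.64%). Both responses were called for 1309 genes, which are 13.8% of those called in wild-type and 75% of those called in transgenic hearts. The direction was the same for 1275 of them and opposite for 34. Among the 3229 genes (16.3%) called in wild-type hearts with a change of at least 1, 86.1% had the same sign in transgenic hearts, and the median ratio of the transgenic to the wild-type change was 0.332. Taken the other way, among the 739 genes (3.74%) called in transgenic hearts with a change of at least 1, the median ratio of the wild-type to the transgenic change was 0.999. That ratio was 1.33 for the 376 that rose in transgenic hearts and 0.643 for the 363 that fell. Selecting genes by either response favours a large value of that response, so the ratios describe the chosen genes only. Across all 19761 genes, which are not independent replicates, the responses had a Pearson correlation of 0.57 and a Spearman correlation of 0.50, with no array in common.

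**Figure D1:**
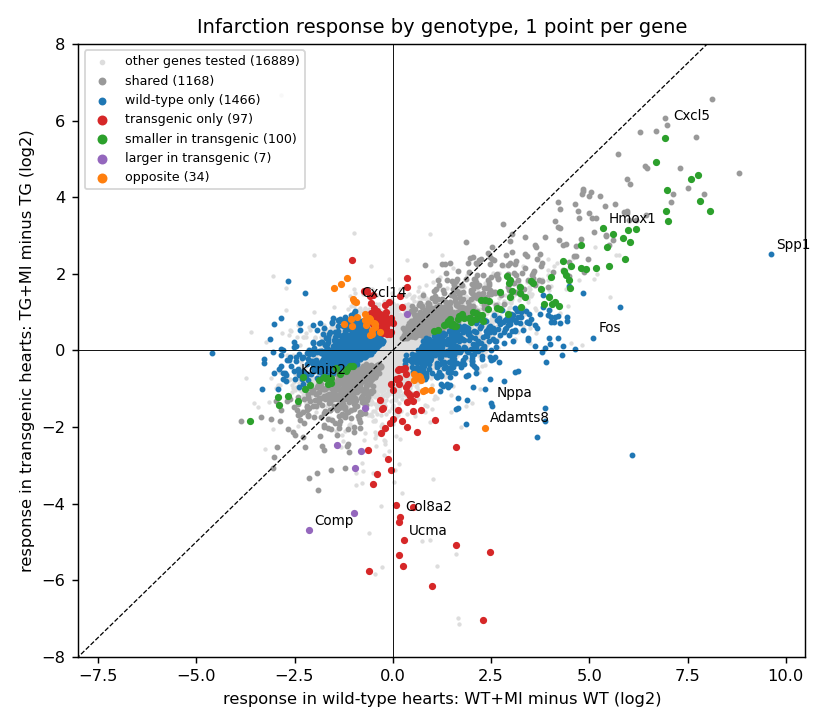
Change after infarction in wild-type hearts (x axis, WT+MI minus WT, log2) against that in transgenic hearts (y axis, TG+MI minus TG, log2), 1 point per gene tested, coloured by response class, with equal responses on the dashed line. The 1466 genes that responded in wild-type hearts only lie along the horizontal axis, the 97 that responded in transgenic hearts only along the vertical axis, and the 34 with opposite responses towards the upper left and lower right corners.

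Each gene was put in a class by its calls. A response in wild-type hearts only, with the interaction called, was found for 1466 genes, and a response in transgenic hearts only for 97. A further 100 genes responded in both genotypes the same way but less in transgenic hearts, 7 responded more in transgenic hearts, and 34 responded in opposite directions. For 24 genes the interaction was called and neither response was. Both responses were called in the same direction with no called interaction for 1168 genes, 731 that rose and 437 that fell. For another 7033 genes a response was called in 1 genotype and the interaction was not, so their responses could not be told apart, and 9832 genes had no call.

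Of the genes with a response in wild-type hearts only, 443 rose there and 1023 fell. The 443 had a median change of 1.52 in wild-type and 0.08 in transgenic hearts, and the 1023 a median of -0.92 in wild-type and 0.05 in transgenic hearts. These medians follow in part from the class rule, which requires a call in 1 genotype and none in the other. Where the genotypes differed was read from the direct comparisons of TG with WT (518 genes called, 2.62%, with 1.49% higher and 1.13% lower in TG) and of TG+MI with WT+MI (2403 called, 12.2%, with 7.77% higher and 4.39% lower in TG+MI), which use the same arrays. Of the 1728 interaction genes, 916 differed between genotypes after infarction only, 275 before it only, 29 at both times and 508 at neither. Of the 29, 25 had differences of opposite sign before and after.

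**Figure D2:**
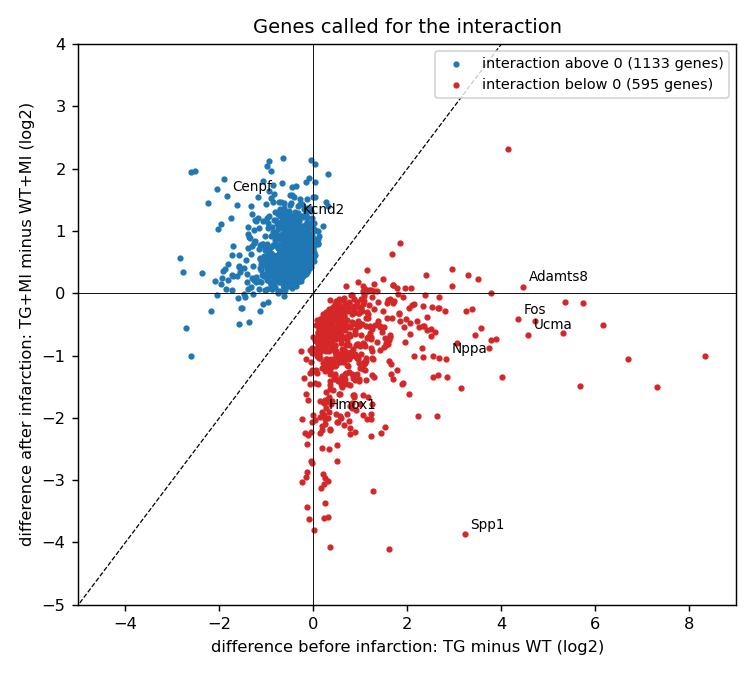
Genotype difference before infarction (x axis, TG minus WT, log2) against that after infarction (y axis, TG+MI minus WT+MI, log2) for the 1728 genes called for the interaction, which is the height above or below the dashed line of equal differences. Hmox1 lies near 0 on the x axis and at -1.95 on the y axis, whereas Ucma (plotted at its background values outside TG), Fos and Adamts8 lie far to the right and between -0.66 and 0.11 on the y axis.

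Hmox1 and Mt2 rose in both genotypes but less in transgenic hearts. Hmox1, the inducible haem oxygenase, lay at 0.25, -0.12 and -0.63 on the WT arrays and at 5.24, 5.07 and 5.27 on the WT+MI arrays. It lay at 0.03, 0.38 and -0.25 on the TG arrays and at 3.18, 3.38 and 3.16 on the TG+MI arrays. The genotypes overlapped before infarction, and every TG+MI array was below every WT+MI array. Hmox1 rose by 5.36 ± 0.22 in wild-type and by 3.19 ± 0.22 in transgenic hearts, an interaction of -2.17 ± 0.31 (adjusted p = 0.0155). It was called in 23 of 25 alternative settings, but not with the slide block or the atrial covariate. The metallothionein gene Mt2, whose protein binds zinc and copper, reached overlapping levels after infarction from unlike starting points. It lay at 4.56, 4.02 and 3.89 on the WT arrays, 6.51, 7.08 and 6.85 on the TG arrays, 8.79, 8.84 and 8.35 on the WT+MI arrays and 8.06, 8.43 and 8.80 on the TG+MI arrays. The WT and TG arrays did not overlap, and the infarcted groups did. The interaction of Mt2 was -2.89 ± 0.34 (adjusted p = 0.0105, slide-blocked -2.92, adjusted p = 0.105). That of Mt1, which had a called rise in wild-type hearts only, was -1.07 ± 0.24 (adjusted p = 0.0364). Ankrd1, a stretch-responsive nuclear factor gene of muscle, had an interaction of -0.83 ± 0.18 (adjusted p = 0.0359). Ankrd1 was singled out after its values were seen.

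Nppa, the gene of atrial natriuretic peptide, differed most of the stress genes. It lay at 5.72, 5.67 and 5.71 on the WT arrays, 8.50, 8.25 and 7.86 on the WT+MI arrays, 8.87, 7.94 and 8.73 on the TG arrays, and 7.39, 7.90 and 6.18 on the TG+MI arrays. The WT arrays were thus below all others, though TG+MI 3, at 6.18, lay close to them. The TG arrays reached the range of the WT+MI arrays. Nppa rose by 2.51 ± 0.39 in wild-type hearts and changed by -1.36 ± 0.39 (adjusted p = 0.0542) in transgenic hearts, an interaction of -3.87 ± 0.55 (adjusted p = 0.0155, called in 23 of 25 settings). Nppb, which encodes the related B-type peptide, rose by 1.15 ± 0.14 in wild-type and by 1.08 ± 0.14 in transgenic hearts, with an interaction of -0.07 ± 0.20 (adjusted p = 0.825). Nppa is a gene of atrial muscle as well as a stress gene, and the atrial markers were high on the same TG arrays. With the atrial marker level as a covariate Nppa was not called. The part of atrial tissue in its values cannot be told apart from that of the transgene. Of 17 tested cardiac stress genes, 0 were called above 0 and 5 below, against 5.73% and 3.01% of all genes, and the median interaction was -1.07. Leaving out WT+MI 1 and TG+MI 3 left 3 called below 0, with any 1 array left out 3 to 8, and with the slide block 0 (Hmox1 -1.87, adjusted p = 0.126, Nppa -4.08, adjusted p = 0.119).

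**Figure D3:**
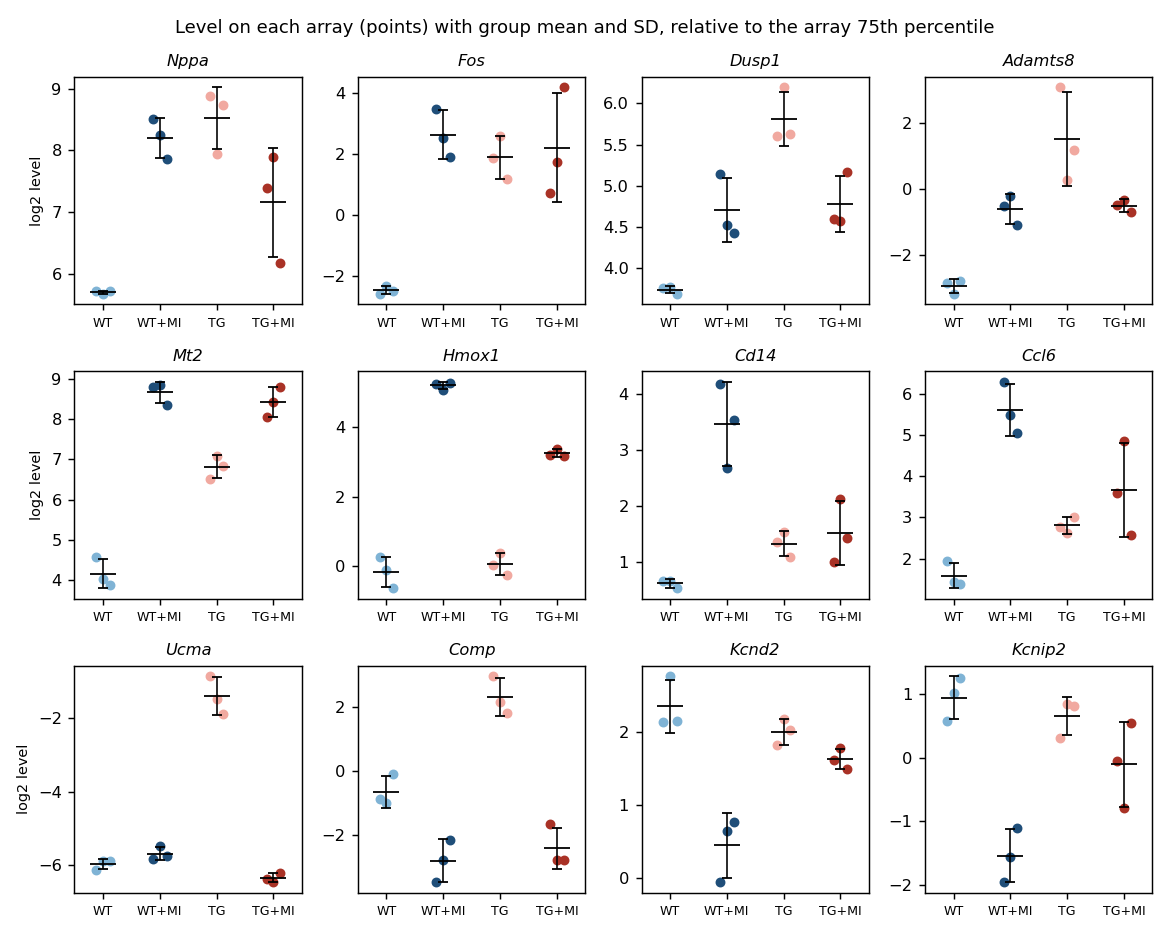
Log2 level of 12 genes relative to the 75th percentile of the array (y axes) in the 4 groups (x axes), with 1 point per array and bars for the mean and SD of 3 arrays. Nppa, Fos, Dusp1 and Adamts8 are lowest in WT, Hmox1, Cd14 and Ccl6 differ after infarction, Ucma is high in TG only, and Kcnd2 and Kcnip2 are lowest in WT+MI.

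Immediate early genes are switched on within minutes of a stimulus without new protein synthesis. Of 23 tested immediate early and heat shock genes, 20 were called higher in wild-type and 11 in transgenic hearts, against 18.6% and 5.19% of all genes. Of the 23, 10 were shared with no called interaction, and 5 were called higher in TG than in WT, against 5.91% and 1.49% of all genes. The interaction was called above 0 for 0 of the 23 and below 0 for 6 (Fos, Nr4a1, Dusp1, Nr4a2, Fosl2 and Ier2), against 5.73% and 3.01% of all genes. Of the 23 estimates 22 were below 0, against 7696 of 19761 over all genes. The list's median was -1.27, made of 2.12 in wild-type and 0.68 in transgenic hearts. The 250 bases before the start of 4 of the called genes are shown, since members of this family are known targets of CREB, which binds the sequence TGACG and its full palindrome TGACGTCA. The sequences are RefSeq's on GRCm38.p6, written 5′ to 3′ on the strand of the gene, with each TGACG, read on either strand, in capitals. They lie at chr12:85473640-85473889 (plus strand) for Fos, chr15:101266596-101266845 (plus strand) for Nr4a1, chr2:57124004-57124253 (minus strand) for Nr4a2 and chr17:26508473-26508722 (minus strand) for Dusp1.
Fos: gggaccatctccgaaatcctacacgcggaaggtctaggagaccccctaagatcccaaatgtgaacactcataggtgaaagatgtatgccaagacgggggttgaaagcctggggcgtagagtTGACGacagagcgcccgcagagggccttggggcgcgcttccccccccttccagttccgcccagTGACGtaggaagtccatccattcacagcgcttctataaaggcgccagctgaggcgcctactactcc
Nr4a1: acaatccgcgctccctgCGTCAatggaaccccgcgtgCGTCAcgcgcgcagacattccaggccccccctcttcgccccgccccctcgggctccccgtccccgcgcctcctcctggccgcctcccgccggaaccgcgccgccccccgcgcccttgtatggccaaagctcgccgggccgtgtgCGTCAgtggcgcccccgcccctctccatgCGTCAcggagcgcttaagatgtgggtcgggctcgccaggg
Nr4a2: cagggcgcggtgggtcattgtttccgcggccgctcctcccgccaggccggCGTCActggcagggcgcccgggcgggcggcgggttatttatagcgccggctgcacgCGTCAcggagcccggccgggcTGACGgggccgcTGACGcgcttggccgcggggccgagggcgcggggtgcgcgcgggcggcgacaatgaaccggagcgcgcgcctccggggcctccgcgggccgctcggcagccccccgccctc
Dusp1: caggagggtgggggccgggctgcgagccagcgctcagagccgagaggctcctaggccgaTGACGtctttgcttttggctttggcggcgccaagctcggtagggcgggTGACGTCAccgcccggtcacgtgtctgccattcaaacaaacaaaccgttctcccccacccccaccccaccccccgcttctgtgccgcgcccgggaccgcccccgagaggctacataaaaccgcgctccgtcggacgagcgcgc

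The motif TGACG, which the palindrome also holds, was found 2 times before Fos, 4 times before Nr4a1 and before Nr4a2, and 3 times before Dusp1, where 2 of the 3, 1 on each strand, make up 1 palindrome. TGACG was held by 17.8% of all 32851 RefSeq promoters in that window, and 1.55% held TGACGTCA. Of the 23 tested list members 19 were matched and 12 of these held TGACG, and of the 6 called genes 5 were matched and 4 held it. These counts are per gene, with a gene counted if any of its promoters held the motif. The shares of all promoters are per promoter, so they are not the same measure. A match in this window describes the letters there and is no evidence of binding.

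Fos, a subunit of the AP-1 transcription factor, lay at -2.59, -2.33 and -2.50 on the WT arrays and at 3.48, 2.51 and 1.89 on the WT+MI arrays. It lay at 1.87, 2.58 and 1.18 on the TG arrays and at 0.71, 1.73 and 4.18 on the TG+MI arrays. The WT arrays stood apart from all others, and the remaining groups overlapped. Fos rose by 5.10 ± 0.74 in wild-type hearts and changed by 0.33 ± 0.74 (adjusted p = 0.817) in transgenic hearts, an interaction of -4.77 ± 1.05 (adjusted p = 0.0364, called in 14 of 25 settings). Dusp1, a phosphatase that switches off MAP kinases, moved in opposite directions. It lay at 3.76, 3.77 and 3.69 on the WT arrays, 5.15, 4.53 and 4.43 on the WT+MI arrays, 5.61, 6.19 and 5.63 on the TG arrays and 4.60, 4.57 and 5.16 on the TG+MI arrays. The TG arrays were the highest, the WT arrays the lowest, and the infarcted groups overlapped between them. Dusp1 rose by 0.96 ± 0.23 in wild-type hearts (adjusted p = 0.00658) and fell by 1.03 ± 0.23 in transgenic hearts (adjusted p = 0.0224), with an interaction of -1.99 ± 0.33 (adjusted p = 0.0225).

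The orphan nuclear receptor genes Nr4a1 and Nr4a2 had interactions of -2.92 ± 0.54 (adjusted p = 0.026, slide-blocked -2.87, adjusted p = 0.181) and -1.81 ± 0.39 (adjusted p = 0.0359). Both rose in wild-type hearts, by 1.67 and 1.11, and both were higher in TG than in WT, by 2.68 and 1.31. The heat shock gene Hspa1a was called in both genotypes, at 5.17 and 3.46, without a called interaction (-1.71 ± 1.29, adjusted p = 0.382). The count of list members called below 0 was 7 without WT+MI 1 and TG+MI 3, 0 to 9 with any 1 array left out, and 0 with the slide block (Fos -4.07, adjusted p = 0.233, Dusp1 -1.81, adjusted p = 0.172).

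Many inflammatory genes rose after infarction, with fewer called in transgenic hearts. Of 33 tested genes of a cytokine and chemokine list, which also holds the enzyme gene Ptgs2, 24 were called higher in wild-type hearts. In transgenic hearts 14 were called higher, and the medians were 3.42 in wild-type and 1.12 in transgenic hearts. Of all genes, 18.6% and 5.19% were called higher. The interaction was called below 0 for 5 of the 33 (Ptgs2, Ccl6, Il1b, Ccl9 and Cxcl2) and above 0 for 1 (Cxcl14), where 3.01% and 5.73% of all genes were called. The list's median was -0.98, and -0.46 without WT+MI 1. Of the 5, Ptgs2, Ccl6 and Ccl9 had a called rise in wild-type hearts only, and Il1b and Cxcl2 in both genotypes. Ptgs2 was not well above background on any WT array and rose at least 16.6-fold in wild-type hearts. Ccl6, a chemokine of myeloid cells, lay at 1.93, 1.43 and 1.39 on the WT arrays and at 6.30, 5.48 and 5.05 on the WT+MI arrays. It lay at 2.78, 2.62 and 3.02 on the TG arrays and at 3.60, 4.85 and 2.57 on the TG+MI arrays. The TG+MI arrays were below all WT+MI arrays, and 1 of them lay below every TG array. The interaction of Ccl6 was -3.16 ± 0.69 (adjusted p = 0.0361, called in 14 of 25 settings).

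Il1b, which encodes the cytokine interleukin-1 beta, rose in both genotypes. It lay at -3.30, -4.16 and -3.86 on the WT arrays, where 1 of 3 was well above background, and at 4.06, 2.26 and 3.29 on the WT+MI arrays. It was not well above background on any TG array and lay at 0.00, 1.21 and -0.70 on the TG+MI arrays. All TG+MI arrays were thus below all WT+MI arrays. The rise was 6.98 ± 0.54 in wild-type hearts and at least 13.3-fold in transgenic hearts, and the interaction was called at an adjusted p of 0.0491 (0.293 with the slide block), with no measured size. A bound of this kind sets the bright group against the lowest signal well above background on the dim arrays. The neutrophil chemoattractant gene Cxcl5 rose by 6.99 ± 0.53 and 5.87 ± 0.53, with an interaction of -1.12 ± 0.74 (adjusted p = 0.32). The monocyte chemoattractant gene Ccl2 rose by 4.83 and 4.17, with an interaction of -0.67 ± 0.54 (adjusted p = 0.419).

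Markers of myeloid cells leaned the same way. Of 28 monocyte and macrophage markers, 0 were called above 0 and 5 below (Cd14, Fcgr3, Gpnmb, Trem2 and Lyve1), where 5.73% and 3.01% of all genes were called. Of the 28 estimates 26 were below 0, against 7696 of 19761 over all genes. The median was -1.26, with 0.65 in wild-type and -0.21 in transgenic hearts. Without TG+MI 3 the median was -0.78. Cd14, the co-receptor of Tlr4, lay at 0.67, 0.66 and 0.53 on the WT arrays and at 4.17, 2.67 and 3.53 on the WT+MI arrays. It lay at 1.36, 1.53 and 1.08 on the TG arrays and at 1.0, 2.12 and 1.43 on the TG+MI arrays. The WT+MI arrays stood above all others, and the TG and TG+MI arrays overlapped. Cd14 rose by 2.84 ± 0.35 in wild-type hearts and changed by 0.19 ± 0.35 (adjusted p = 0.772) in transgenic hearts, an interaction of -2.65 ± 0.50 (adjusted p = 0.0277). Fcgr3, an antibody receptor gene, had an interaction of -2.21 ± 0.51 (adjusted p = 0.0387) and Trem2, a lipid-sensing receptor gene of macrophages, one of -1.96 ± 0.41 (adjusted p = 0.0354, slide-blocked -2.11, adjusted p = 0.19).

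Of 15 neutrophil markers, 10 were called higher in wild-type and 7 in transgenic hearts, against 18.6% and 5.19% of all genes. An interaction below 0 was called for 3 of the 15 (Cxcr2, Clec4e and Lcn2) and above 0 for 1 (Camp), against 3.01% and 5.73% of all genes. Cxcr2, the receptor of neutrophil chemokines, was not well above background in WT or TG. It rose at least 26.0-fold in wild-type and at least 2.74-fold in transgenic hearts (interaction called at an adjusted p of 0.0275), and as both are lower bounds the size of the difference was not measured. S100a8 and S100a9, the calprotectin genes, rose by 4.99 and 4.85 in wild-type and by 4.03 and 4.20 in transgenic hearts, with interactions of -0.96 ± 0.69 and -0.64 ± 0.62 that were not called. In tissue RNA, fewer cells of a type and less RNA per cell cannot be told apart. Of the lymphocyte markers 0 of 10 had a called interaction, and of the interferon-stimulated genes 0 of 23. Without WT+MI 1 and TG+MI 3, 2 genes of the cytokine list, 4 macrophage markers and 1 neutrophil marker were called below 0. With the slide block 0 of each list were (Ccl6 -3.37, adjusted p = 0.197, Cd14 -2.40, adjusted p = 0.197, Cxcr2, adjusted p = 0.184).

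Toll-like receptor genes were mostly not told apart between genotypes. Of 46 tested genes of this pathway, 22 were called higher and 7 lower in wild-type hearts and 4 higher and 0 lower in transgenic hearts. Of all genes, 18.6% were called higher and 29.4% lower in wild-type hearts, and 5.19% higher and 3.64% lower in transgenic hearts. The interaction was below 0 for 4 and above 0 for 2, where 3.01% and 5.73% of all genes were called, with a median of -0.23. Below 0 were Cd14, Nfkbia, the inhibitor of NF-kappaB that is itself one of its targets (-1.95 ± 0.51, adjusted p = 0.0453), Tlr13, an endosomal sensor of bacterial ribosomal RNA (-1.83 ± 0.48, adjusted p = 0.0453), and the kinase gene Ripk1. Above 0 were Sigirr, a receptor that restrains the pathway (0.89 ± 0.24, adjusted p = 0.0485), and the kinase adaptor gene Tab1. Tlr2, the receptor of bacterial lipoproteins, lay at -0.66, -0.67 and -0.68 on the WT arrays, 1.82, 0.63 and 0.75 on the WT+MI arrays, -0.31, -0.61 and -0.64 on the TG arrays and -0.55, 0.23 and -0.74 on the TG+MI arrays. The WT+MI arrays alone stood above the rest. Its interaction of -1.57 ± 0.44 missed the threshold (adjusted p = 0.0519), as did that of Tlr4, the lipopolysaccharide receptor (-0.42 ± 0.18, adjusted p = 0.136). The adaptor gene Myd88, which links many of these receptors to NF-kappaB, rose in both genotypes, by 1.48 and 0.96 (interaction -0.51 ± 0.21, adjusted p = 0.121). Without WT+MI 1 and TG+MI 3, 3 pathway genes were called below 0 and 0 above, and with the slide block 0 in either direction.

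Matrix genes gave the largest share of calls of any list with at least 10 tested members. Of 38 tested extracellular matrix and fibrosis genes, 16 were called below 0 and 0 above, against 3.01% and 5.73% of all genes, and the median was -1.25. The calls fell into unlike patterns. Spp1, Col12a1, Thbs1, Fn1, Ccn2, Lox, Col5a2 and Col8a1 rose in wild-type hearts only, genes such as Timp1 and Mmp3 rose less in transgenic hearts, Postn and Bgn fell in transgenic hearts only, Fmod and Comp fell more there, and Loxl2 moved in opposite directions. Before infarction 13 of the 38 were called higher in TG than in WT and 0 lower, against 1.49% and 1.13% of all genes. After infarction 1 was higher and 4 were lower in TG+MI, against 7.77% and 4.39%. The atrial markers were high on the same TG arrays. With their level as a covariate 0 of the 38 had a called interaction, but only 1 of all 19761 genes had one. The part of atrial tissue in the matrix values cannot be told apart from that of the transgene.

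Spp1, the osteopontin gene, lay at 5.51, 4.95 and 5.11 on the WT+MI arrays but at 1.95, 4.29 and -2.29 on the TG+MI arrays. The TG+MI arrays were thus all lower and widely spread. Its interaction of -7.10 ± 1.82 (adjusted p = 0.0441, slide-blocked -6.43, adjusted p = 0.247) was called in 8 of 24 settings, and 1 of 3 WT arrays was well above background. Col1a1, the main collagen gene of scar, missed the threshold (-1.67 ± 0.48, adjusted p = 0.0543), with changes of 0.03 in wild-type and -1.64 in transgenic hearts.

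Of the 7 genes classed as responding more in transgenic hearts, Comp, Fibin and Ccdc80 fell and Vps37b, a gene of endosomal sorting, rose, all well above background in every group. For the other 3 the wild-type fall was not fully measured. Chad was well above background on no WT or WT+MI array, Fmod on 1 WT and no WT+MI array, and Tceal6 on no WT+MI array. Comp, a cartilage matrix protein gene, lay at -0.88, -0.99 and -0.08 on the WT arrays, -3.47, -2.76 and -2.14 on the WT+MI arrays, 2.95, 2.16 and 1.79 on the TG arrays and -1.66, -2.77 and -2.77 on the TG+MI arrays. The TG arrays were the highest and the infarcted groups overlapped. Comp fell by 2.14 ± 0.43 in wild-type and by 4.70 ± 0.43 in transgenic hearts (interaction -2.56 ± 0.61, adjusted p = 0.0399). Fmod, the gene of the collagen-binding proteoglycan fibromodulin, was not well above background in TG+MI and fell there at least 11.6-fold. Its interaction was called at an adjusted p of 0.0155 and in 22 of 24 settings, with no measured size. Fmod passed the filter only through the TG arrays, and the settings refit the same arrays. Matrix genes called below 0 numbered 10 without WT+MI 1 and TG+MI 3, with any 1 array left out 3 to 20, and with the slide block 0 (Comp -2.05, adjusted p = 0.247, Fmod, adjusted p = 0.126).

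A response in transgenic hearts only was found for 97 genes, of which 18 were not well above background in some group. The 5 described next were singled out after their values were seen. They passed the filter only through the TG arrays, so they had to differ there, and their fits set TG against background values. The alternative settings refit the same arrays, so calls under them add no separate support. Ucma, a cartilage matrix gene whose probe lies at chr2:4906712-4906771 on mm9, was well above background on all 3 TG arrays, at -0.84, -1.47 and -1.88. It was not on any other array, where it lay between -6.46 and -5.48. Ucma was at least 5.30-fold higher in TG than in WT and fell at least 6.78-fold in transgenic hearts (adjusted p of the interaction 0.000126). It was called in all 24 settings that could test it, the slide block included (adjusted p = 0.00077). Col8a2, a collagen gene, was at least 3.70-fold higher in TG than in WT and fell at least 4.73-fold in TG+MI (adjusted p = 0.00146, with the slide block 0.0176). Cilp2, Epyc and the protease gene Prss35 were also above background on the TG arrays alone, and fell at least 20.8-fold, 3.82-fold and 4.90-fold there. With the slide block they were not called (adjusted p = 0.126, 0.176 and 0.0836). Mlana, a melanocyte gene of the same class (adjusted p = 0.0163), was well above background on 3 TG, 1 WT+MI, 2 TG+MI and 0 WT arrays, and was also named after its values were seen.

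The atrial markers Mybphl and Dkk3 were in the same class. Dkk3 had an interaction of -5.48 ± 1.44 (adjusted p = 0.0457, slide-blocked -5.03, adjusted p = 0.251). Mybphl (adjusted p = 0.0453) was well above background on 0 WT, 1 WT+MI and 1 TG+MI array, so its size was not measured. Sln (-8.83 ± 4.29) and Myl7 (-8.65 ± 4.11) were not called, and both were high on WT+MI 1 and TG+MI 2 as well. With the atrial marker level as a covariate Ucma kept its call, and Col8a2, Cilp2, Epyc and Prss35 did not. The atrial markers were high on all TG arrays, so the part of atrial tissue in these values cannot be told apart from that of the transgene.

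Of the 14 tested smooth muscle and pericyte genes, Cnn1 and Tagln were in this class with interactions below 0, while Rgs5, Kcnj8 and Abcc9 had interactions above 0, and the list's median was 0.17. Cnn1, the calponin gene, lay at 4.65, 3.38 and 1.60 on the TG arrays and at 1.32, 1.22 and -0.45 on the TG+MI arrays, against -0.64 to -0.13 on the WT arrays and 0.76 to 1.55 on the WT+MI arrays. The TG arrays were the highest, with the lowest of them just above the highest WT+MI array. The interaction was -4.13 ± 0.96 (adjusted p = 0.0387), and that of the transgelin gene Tagln -2.28 ± 0.58 (adjusted p = 0.0435). Among the genes that rose in transgenic hearts only were Arntl, which encodes the clock factor BMAL1 (1.53 ± 0.33, adjusted p = 0.0359), and Bnip3, a mitophagy gene induced by low oxygen (1.17 ± 0.28, adjusted p = 0.0392). Arntl lay at -1.39, -1.76 and -1.03 on the TG arrays and 0.77, 0.33 and 0.36 on the TG+MI arrays, against -0.58 to 0.13 on the WT arrays and -0.11 to 0.22 on the WT+MI arrays. The TG arrays were the lowest and the TG+MI arrays the highest. With the slide block none of these genes was called (Cnn1 -2.52, adjusted p = 0.237, Arntl 1.17, adjusted p = 0.233).

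Opposite responses were found for 34 genes, of which 17 carry the symbol of a protein-coding gene and 8 (23.5%) only the name of a genome interval, against 8.02% of all genes tested. With a symbol, 8 rose in wild-type and fell in transgenic hearts (Adamts8, Dusp1, Twist2, Bud23, Stab1, Dclre1c, Adora1 and Loxl2). The other 9 fell in wild-type and rose in transgenic hearts (Cxcl14, Kcnj4, Glis1, Tmem171, Olfr521, Olfr1383, Ankrd54, Rabl3 and Pgap6). In this class 8 of the 34 were not well above background on any array of at least 1 group. Olfr1383 was well above background in TG+MI alone and passed the filter only through that group. It therefore had to be high there, and its fall in wild-type hearts was not measured. Kcnj4 was well above background on no WT+MI or TG array and Glis1 on no WT+MI and 1 TG array, so that their responses are not fully measured. For Kcnj4 the fall was at least 1.19-fold and the rise at least 1.10-fold. Of the 34 genes, 21 differed between genotypes before infarction only, 7 after it only, 3 at both times and 3 at neither.

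Adamts8, a matrix protease gene, lay at -2.86, -3.19 and -2.80 on the WT arrays, -0.53, -0.21 and -1.11 on the WT+MI arrays, 3.08, 0.28 and 1.18 on the TG arrays and -0.48, -0.33 and -0.71 on the TG+MI arrays. The WT arrays were the lowest, the TG arrays the highest, and the infarcted groups overlapped. Adamts8 rose by 2.34 ± 0.55 in wild-type hearts (adjusted p = 0.00592) and fell by 2.02 ± 0.55 in transgenic hearts (adjusted p = 0.0468), an interaction of -4.36 ± 0.78 (adjusted p = 0.0246). Adora1, the adenosine A1 receptor gene, lay at -0.69, -0.93 and -0.67 on the WT arrays and 0.62, 0.67 and 0.48 on the TG arrays. After infarction it lay at -0.11, -0.02 and -0.52 on the WT+MI arrays and -0.17, -0.23 and -0.12 on the TG+MI arrays, so that groups far apart before infarction overlapped after it. Its interaction was -1.31 ± 0.19 (adjusted p = 0.017, called in 21 of 25 settings).

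Cxcl14, a chemokine gene, ran the other way. It lay at 2.98, 3.54 and 2.77 on the WT arrays, 2.07, 2.39 and 2.04 on the WT+MI arrays, 1.18, 1.79 and 1.59 on the TG arrays and 2.09, 2.67 and 3.56 on the TG+MI arrays. It fell by 0.93 ± 0.33 in wild-type hearts (adjusted p = 0.0409) and rose by 1.26 ± 0.33 in transgenic hearts (adjusted p = 0.0437), an interaction of 2.19 ± 0.47 (adjusted p = 0.0359). The WT and TG arrays did not overlap, and the infarcted groups did. Both responses of such a gene have to pass on their own, and the number of genes in the class was 5 to 57 with any 1 array left out, 0 with the slide block and 70 without WT+MI 1 and TG+MI 3. The blocked interactions were -4.02 for Adamts8 (adjusted p = 0.181), -1.20 for Adora1 (adjusted p = 0.136) and 2.11 for Cxcl14 (adjusted p = 0.217).

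Ion channel genes fell in wild-type hearts, and some of them did not fall as far in transgenic hearts. Of 39 tested conduction and ion channel genes, 23 were called lower in wild-type and 3 in transgenic hearts, with medians of -0.80 and -0.12. Of all genes, 29.4% and 3.64% were called lower. The interaction was above 0 for 8 of the 39 (Kcnip2, Kcnd2, Kcnk3, Abcc9, Kcnj11, Kcnj2, Kcnj8 and Kcnd3) and below 0 for 0, where 5.73% and 3.01% of all genes were called. The list's median was 0.60. These genes encode the transient outward potassium channel and its auxiliary subunit (Kcnd2, Kcnd3, Kcnip2), the ATP-sensitive channel (Kcnj8, Kcnj11, Abcc9), an inward rectifier (Kcnj2) and a background channel (Kcnk3). Kcnd2 lay at 2.14, 2.77 and 2.15 on the WT arrays, -0.06, 0.64 and 0.77 on the WT+MI arrays, 1.82, 2.18 and 2.03 on the TG arrays and 1.63, 1.78 and 1.5 on the TG+MI arrays. The WT+MI arrays were below all others, and WT and TG overlapped. Kcnd2 fell by 1.90 ± 0.23 in wild-type hearts and changed by -0.37 ± 0.23 (adjusted p = 0.344) in transgenic hearts, an interaction of 1.53 ± 0.33 (adjusted p = 0.0359, called in 16 of 25 settings). Kcnip2 had an interaction of 1.73 ± 0.47 (adjusted p = 0.0479), called in 8 of 25. The connexin gene Gja1 (0.65 ± 0.48, adjusted p = 0.364) was not called. Channel genes called above 0 numbered 3 without WT+MI 1 and TG+MI 3, with any 1 array left out 0 to 10, and with the slide block 0 (Kcnd2 1.51, adjusted p = 0.214).

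Mitochondrial gene lists leaned the same way with few calls. Of 29 fatty acid oxidation genes, 20 were called lower in wild-type and 1 in transgenic hearts, where 29.4% and 3.64% of all genes were. An interaction above 0 was called for 3 of the 29 (Ppara, Etfa and Echs1), where 5.73% of all genes had one, and below 0 for 0. The list's median was 0.62. Ppara, the nuclear receptor that drives these genes, fell by 1.34 ± 0.24 in wild-type hearts and changed by -0.10 ± 0.24 in transgenic hearts (interaction 1.24 ± 0.34, adjusted p = 0.0479). Of 35 oxidative phosphorylation and citrate cycle genes, 22 were called lower in wild-type and 0 in transgenic hearts, 3 had an interaction above 0 (Ndufa9 and Sdhc among them), a share near the 5.73% of all genes, and the median was 0.51. Of the 35 estimates 0 were below 0, against 7696 of 19761 over all genes, and the genes of a list are not independent of each other. Of 26 contractile genes, 12 were called lower in wild-type and 0 in transgenic hearts, and 0 had a called interaction, with a median of 0.42. After quantile normalization the medians of the oxidative phosphorylation and contractile lists were 0.29 and 0.19. Without WT+MI 1 and TG+MI 3, 0 fatty acid oxidation genes and 0 oxidative phosphorylation genes were called above 0, and 1 fatty acid oxidation gene was called below 0. With the slide block 0 were called.

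**Figure D4:**
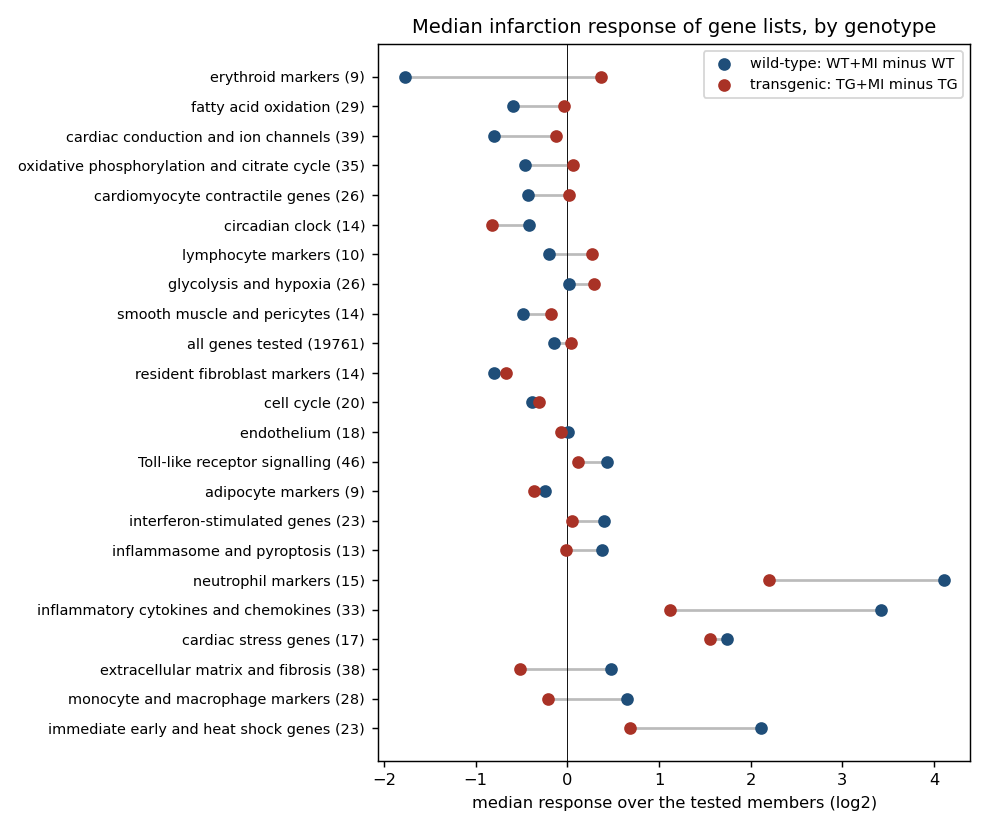
Median change after infarction (x axis, log2) over the tested members of each gene list (y axis, number tested in brackets), in wild-type and transgenic hearts, ordered by the median interaction. The inflammatory, neutrophil, macrophage, matrix and immediate early lists have a lower median in transgenic than in wild-type hearts, and the mitochondrial and ion channel lists a higher one.

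The 1168 genes called in both genotypes the same way, without a called interaction, held much of the shared injury response. Of those that rose, Ankrd2, a stretch-response gene of muscle, lay at -3.04, -3.82 and -2.89 on the WT arrays and 3.67, 3.41 and 2.03 on the WT+MI arrays. It lay at -3.61, -3.11 and -3.11 on the TG arrays and 1.85, 2.83 and 2.60 on the TG+MI arrays. The genotypes overlapped both before and after infarction. Adamts4, a matrix protease gene, rose by 5.73 and 5.12. Il6, the interleukin-6 gene, was also called in both genotypes, without a called interaction (adjusted p = 0.589). It was well above background on 0 WT arrays and 1 TG array. Il6 rose at least 50.4-fold in wild-type hearts, and the size of its interaction was not measured. Of those that fell, Dbp, a clock output gene, fell by 2.96 ± 0.34 in wild-type and 2.52 ± 0.34 in transgenic hearts, and Islr, a gene of mesenchymal cells, by 2.53 and 2.13. A missed threshold does not show that the responses are alike. The median change of the 731 that rose was 1.10 in wild-type and 0.82 in transgenic hearts, and that of the 437 that fell -1.08 and -0.96.

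**Figure D5:**
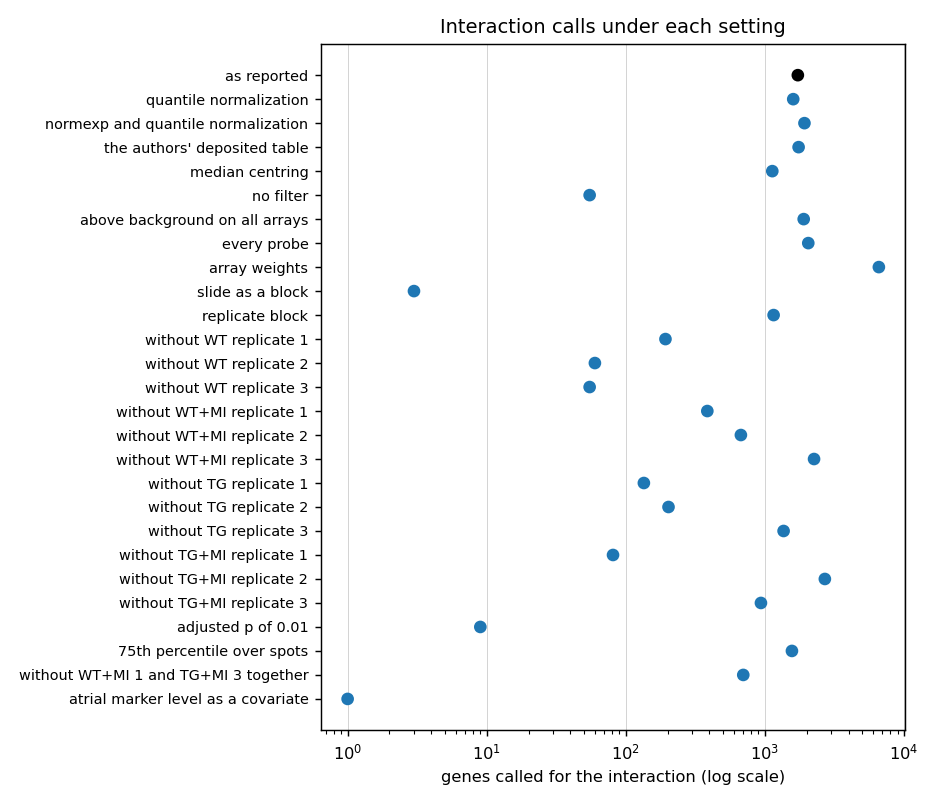
Number of genes called for the interaction (x axis, log scale; probes in the setting with every probe) under the reported setting (black) and each alternative (y axis). The count is 1728 as reported, 1 to 3 with the atrial marker covariate or the slide block, 55 to 2703 with 1 array left out, and 1132 to 1928 under the other normalizations of the same arrays.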

How the data were processed

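Total RNA of 12 mouse heart samples was measured, 1 array each. Spot intensity was background-subtracted by Agilent Feature Extraction 12.0.3.1, per the file headers, and deposited as linear processed intensity, not normalized between arrays. The authors also deposited a log2 value table of the same arrays, whose normalization is not given in the sources used here, and it was used as an alternative only. Per the submitters' processing notes, limma was among the tools used.

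Intensities were taken to log2, outlier spots left out, spots of each of 56556 non-control probes averaged, and their 75th percentile on each array subtracted. Each of 36981 genes was represented by its probe with the highest mean, and 19761 genes were tested, those that in some group exceeded background on all 3 arrays. Probe names were updated through RefSeq tables (32966 probes by accession, 10218 by symbol, 520 by synonym, 12852 kept), and probe positions are the files' own, on mm9. Precision is limited by the 12 arrays and by the share of probes above background.

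One group-means model over all 12 arrays was fitted with limma 3.58.1 (lmFit, eBayes) in R 4.3.3, with Benjamini-Hochberg adjustment over all genes tested and a threshold of 0.05. The model gave the interaction, both infarction responses and both genotype differences. The method was tested on simulated data. Groups and replicate numbers come from the labels. The WT+MI titles do not all begin alike, so the characteristics field set their group. Numbers shared between groups did not pair samples (same-number correlations of -0.26 to 0.12). Where a probe was well above background on no array of a group, a fold change against that group is given as a bound, and the fit's adjusted p describes a fit to background values there.

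The comparison and the 26 gene lists were chosen with earlier results of these data known. Named genes are those with a current symbol and a called interaction that were measured in all groups and had the largest interactions overall and by class, the shared genes with the largest responses in both genotypes, called list members with the largest interactions, and a set of textbook genes. Genes named after their values were seen are Ucma, Col8a2, Prss35, Cilp2, Epyc, Mettl7a1, S100a10, Mlana, Chad, Tceal6 and the opposite genes beyond the 6 largest. Ankrd1 was also named after its values were seen and is not counted among the named genes. List members given only by name show which genes a count holds. Alternatives were other normalizations, centring, filters and probes, array weights, slide and replicate blocks, a stricter threshold and leaving out each array. Added after seeing the data were the percentile over spots, leaving out WT+MI 1 and TG+MI 3 together, and the atrial covariate. Some genes that the rule names are not reported here.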

Additional observations from a re-analysis of the deposited data

Results flagged for a closer look

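The interaction term itself tests whether the infarction responses of wild-type and transgenic hearts differ, and it was called for 1728 genes. With slide as a block it was called for 3. These were Ucma (-5.24 without the block), Col8a2 (-4.53) and Mettl7a1, a methyltransferase-like gene (1.08). Ucma and Col8a2 were well above background in TG alone, so these fitted values set TG against background and measure no size. Both passed the filter only through TG, so a difference there was fixed in advance. Mettl7a1 was not well above background on any WT+MI array. Its fitted values, with and without the block, rest on background values there and measure no size. It lay at -2.78, -2.90 and -3.66 on the TG arrays, so that TG 3, the only control on slide 2, was the lowest of them, and its blocked interaction was 1.63 ± 0.18 (adjusted p = 0.0385).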

How the results depend on the processing

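The counts depended on the slide, on single arrays, on the filter and on the weights, and the cause was not tested. None of the called values of the 147 named genes changed sign in 25 alternatives, of which the filter for all arrays held 105 of the genes. The alternatives reuse the arrays on which the genes were chosen. Of the 114 named genes called, 111 lost the call with the slide block, 113 with the atrial covariate and 100 with no filter. No test other than limma was run. Between 47.0% and 55.2% of probes were well above background, and below it changes are known only as bounds. What each array left out did to the count of calls is given with the results.

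With the slide block 3 genes were called for the interaction, 1 higher and 2 lower, 118 were called for the transgenic response, and the classes held 1 (wild-type only), 2 (transgenic only), 0 (opposite, smaller and larger in transgenic) and 99 (shared) genes. The median interaction was then -0.64 for cytokines, 0.086 for glycolysis and -0.60 for epicardium. With the replicate block 1157 genes were called, 736 higher, 48 smaller and 3 larger in transgenic hearts, and the replicate numbers did not pair the samples. With no filter 55 were called, 20 higher and 35 lower, 951 for the transgenic response, and 33 wild-type only, 10 transgenic only, 7 opposite, 5 smaller, 0 larger and 587 shared. With array weights, which ranged from 0.202 for TG+MI 3 to 4.74 for TG+MI 1, 6610 were called, 4337 higher and 2273 lower, 4498 for the transgenic response, and 4651 wild-type only, 536 transgenic only, 296 opposite, 852 smaller, 51 larger and 2197 shared.

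At an adjusted p of 0.01, 9 were called, 3 higher and 6 lower, with 5886 and 417 for the wild-type and transgenic responses, and 5 wild-type only, 3 transgenic only, 0 opposite, 1 smaller, 0 larger and 322 shared. Median centring gave 1132 calls, 64.2% of them higher, 958 wild-type only and 61 smaller. Quantile normalization left the count at 1601 and moved the medians of the contractile, oxidative phosphorylation and glycolysis lists to 0.19, 0.29 and 0.011. Without WT+MI 1 and TG+MI 3, 700 were called, 404 higher and 296 lower, 3172 for the transgenic response, and 488 wild-type only, 63 transgenic only, 70 opposite and 2258 shared. With the atrial covariate 1 was called, 0 higher and 1 lower, 2929 for the transgenic response, and 0 wild-type only, 1 transgenic only, 0 opposite, 0 smaller, 0 larger and 2546 shared.

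With each array left out in turn, the interaction was called for 55 to 2703 genes, 24 to 1694 higher and 31 to 1009 lower, and the transgenic response for 690 to 2297. The classes then held 32 to 2392 (wild-type only), 8 to 101 (transgenic only), 5 to 57 (opposite), 7 to 192 (smaller), 0 to 10 (larger) and 416 to 1707 (shared) genes. List medians that moved beyond the spread between replicates ranged from -1.37 to -0.46 for cytokines, -1.56 to -0.78 for macrophage markers, 0.10 to 0.29 for glycolysis, -0.13 to 0.11 for endothelium, 1.39 to 3.52 for erythroid markers and -0.73 to -0.34 for the 1 tested lung marker. The authors' deposited table (1750), normexp (1928), every probe (2054), probes above background on all arrays (1904) and the percentile over spots (1567) stayed within 1.5 times the count.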

Other observations

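Some genes outside the lists described above also had large interactions. Cenpf, a kinetochore gene of dividing cells, had the largest interaction above 0 among the named genes. It lay at 2.32, 2.46 and 2.90 on the WT arrays, -1.20, -0.68 and 0.24 on the WT+MI arrays, 0.62, 1.22 and 0.33 on the TG arrays and 1.13, 0.27 and 1.63 on the TG+MI arrays. The WT arrays were the highest, the WT+MI arrays the lowest, and the transgenic groups overlapped. Its interaction was 3.40 ± 0.58 (adjusted p = 0.0231, slide-blocked 3.80, adjusted p = 0.126). Of the 20 tested cell cycle genes 0 had a called interaction, with a median of 0.08. S100a10, which encodes a partner of annexin A2, lay at 2.39, 2.37 and 2.31 on the WT arrays, 4.06, 3.87 and 3.75 on the WT+MI arrays, 3.53, 3.43 and 3.24 on the TG arrays and 3.04, 3.39 and 2.85 on the TG+MI arrays. The interaction of S100a10 was -1.85 ± 0.21 (adjusted p = 0.00823, slide-blocked -1.69, adjusted p = 0.105), called in 23 of 25 settings, and it was singled out after its values were seen. Angptl4, a lipase inhibitor gene, rose by 4.21 in wild-type hearts and changed by 0.33 in transgenic hearts (-3.88 ± 0.65, adjusted p = 0.0228, slide-blocked -4.0, adjusted p = 0.15), and Ltbp2, a gene of elastic fibres, rose by 2.51 and changed by -1.45 (-3.97 ± 0.60, adjusted p = 0.0178, slide-blocked -3.64, adjusted p = 0.143).

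Interaction calls in the other lists stand against 5.73% of all genes above 0 and 3.01% below 0. The erythroid markers had a median of 2.64 with 0 of 9 called, and their median level on WT 1 was 3.74 above their mean over all arrays. The adipocyte markers had 0 of 9 called (median -0.34). The endothelial markers had 1 above 0, the receptor gene Kdr, and 1 below 0, the tight junction gene Cldn5, of 18. The circadian clock list had 1 of 14, Arntl. The skeletal muscle list had 2 of 7 above 0, Ckm and Atp2a1. Among the epicardial markers 1 of 4 was below 0, Msln, which was not well above background on any WT array. The resident fibroblast markers had 1 above 0, Scara5, and 1 below 0, Mfap5, of 14. The smooth muscle and pericyte list had 3 above 0 and 2 below 0 of 14. Of the inflammasome genes 1 of 13 was below 0, Il1b, and of the glycolysis genes 1 was above 0 (Bnip3) and 2 below 0 (Slc16a3 and Pfkp) of 26. The 1 tested lung marker was not called.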
